A study of Mus musculus with 12 samples.

Results

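The KLF and EGR transcription factors were followed in bone marrow-derived macrophages (BMDMs), which are macrophages grown from mouse bone marrow with the growth factor m-CSF. The 10 members were chosen by symbol from the 48526 genes of the count table: *Egr1*, *Egr2* and *Egr3* of the EGR family, and *Klf2*, *Klf3*, *Klf4*, *Klf6*, *Klf7*, *Klf10* and *Klf13* of the KLF family. Marrow came from 3 female C57Bl/6J mice, and each gave cells that stayed untreated or received 100 pg/mL IL-4, 100 ng/mL recombinant Wnt3a, or both, for 16 hr. The labels name no transgene or deletion, and cells of every group were grown in m-CSF. The study asked whether Wnt signaling alters how macrophages respond to IL-4.

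Both families bind DNA through zinc fingers. KLF proteins recognise CACCC and other GC-rich sequences, and some activate transcription while others, such as KLF3 and KLF10, mostly repress it. EGR genes are immediate-early genes, switched on within minutes by growth factor and ERK signaling through the factor SRF bound at CArG boxes, and their proteins are restrained by the NAB corepressors. In macrophages, KLF2 and KLF4 are known to restrain inflammatory genes, KLF4 and EGR2 are linked to the state induced by IL-4, and EGR1 to the maturation of monocytes.

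The counts deposited for Wnt3a and for Wnt3a+IL4 in a mouse overlap. In each of the 3 mice, the Wnt3a count was never below the Wnt3a+IL4 count nor above its double, with 0 exceptions among 48526 genes, whereas 6681 to 8625 genes broke these limits when columns of different mice were set together. These limits hold where reads of a library enter both columns, so the columns were taken apart for each mouse. The difference is the Wnt3a column minus the Wnt3a+IL4 column, and the remainder is 2 times the Wnt3a+IL4 column minus the Wnt3a column. Cells behind both had received Wnt3a, but the labels do not tell which had also received IL-4, and no measured value was used to decide it. With untreated and IL-4-treated cells this gave 4 groups of 3 libraries, 1 library per mouse, and 13342492 to 17453377 counts per library. Libraries of the difference and the remainder are solved from the deposited columns under that assumption.

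The test covered 12421 genes, those with 10 or more counts in 3 or more libraries, by edgeR's quasi-likelihood test with Benjamini-Hochberg adjustment over all of them, and a gene was called at an adjusted p under 0.05. All 10 members were among the genes tested. Levels are counts-per-million values (CPM) after TMM normalization, which scales libraries to each other, and changes are log2 fold changes with their standard error (SE). *Egr3* passed the count minimum only through the untreated libraries, so it is described by its counts. It is left out of the numbers of members called below, unless it is said to be included. The comparisons with untreated cells share those 3 control libraries. When libraries were scaled by total counts alone, the median log2 fold change over all genes moved from -0.01 to -0.10 for the difference and from -0.02 to -0.13 for the remainder, each against untreated cells. Calls over all genes then moved from 287 higher and 135 lower to 247 and 212 for IL-4, from 1462 and 1422 to 1131 and 2238 for the difference, from 1687 and 1450 to 1293 and 2342 for the remainder, and from 2046 and 2004 to 1633 and 2866 for Wnt3a on average.

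IL-4 alone moved members of both families. *Egr2*, *Klf4* and *Klf10* rose, *Egr1* fell, and *Klf2*, *Klf3*, *Klf6*, *Klf7* and *Klf13* did not pass the test. The 4 called members of 9 stood beside 3.4% of all genes tested. Of these genes, 2.31% were higher and 1.09% lower, against 3 and 1 of the 9 members. *Egr2* had the largest change of these 9, with 5.20 times the untreated level.

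Both Wnt3a-treated groups differed from untreated cells in 5 of these 9 members. *Egr1* and *Klf2* fell and *Klf4* rose in both groups. *Egr2* moved in opposite directions, lower in the difference and higher in the remainder. *Klf7* rose in the difference and *Klf3* fell in the remainder. For the difference, 2 members were higher and 3 lower, beside 23.2% of all genes called, 11.8% higher and 11.4% lower. For the remainder, 2 were higher and 3 lower, beside 25.3% called, 13.6% higher and 11.7% lower.

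Because both groups had received Wnt3a, their mean against the mean of untreated and IL-4-treated cells gives the change with Wnt3a under either assignment of IL-4. On this average *Klf2*, *Klf3*, *Klf10*, *Egr1* and *Egr2* fell and *Klf7* rose, 6 of 9 members, beside 32.6% of all genes, 16.5% higher and 16.1% lower. The remainder differed from the difference in 2 of 9 members, *Egr2* (higher) and *Klf13* (lower), beside 5.25% of all genes, 2.87% higher and 2.38% lower. The plot of log2 fold changes shows these comparisons for each member.

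**Figure D1:**
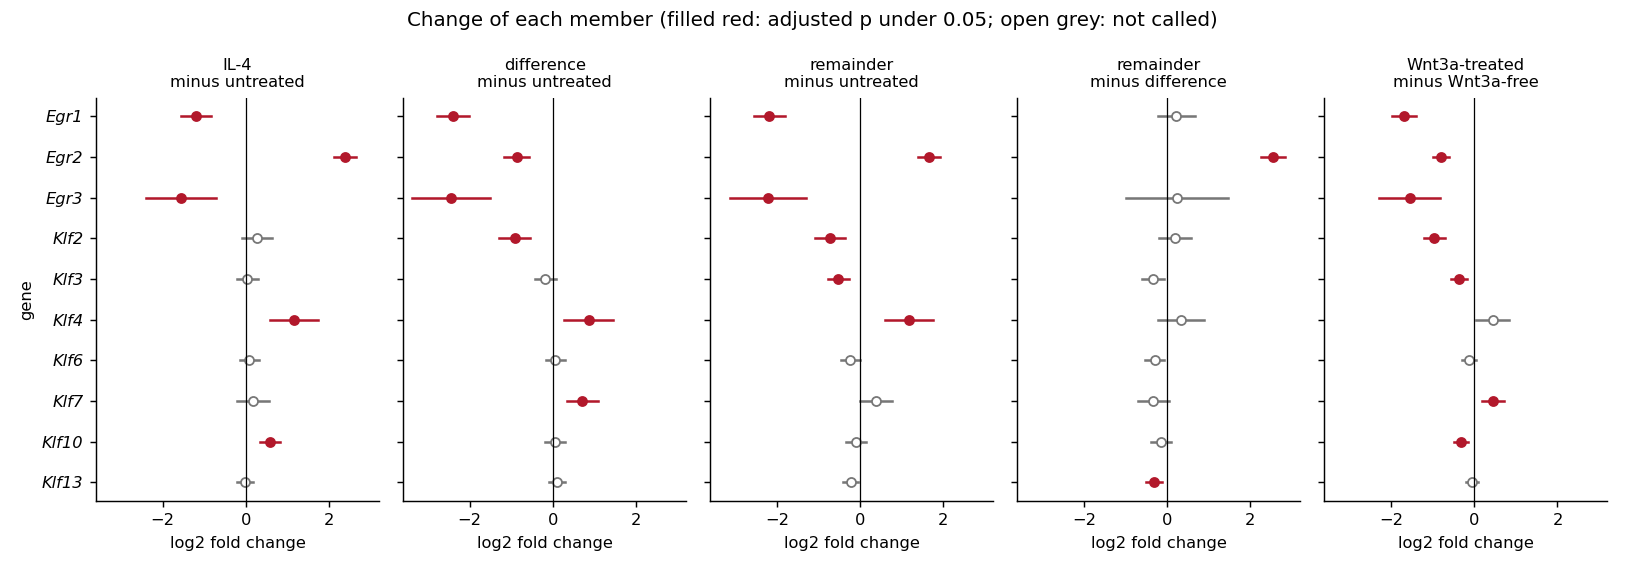
Log2 fold change of each member (points) with its 95% interval (bars) in 5 comparisons, from edgeR's fit of all 12 libraries, with filled red points for an adjusted p under 0.05 and open grey points for the others. *Egr3* is drawn although it passed the count minimum only through the untreated libraries, so its points and intervals are not read as tests. *Egr1* lies left of 0 in the panels against untreated cells, *Klf4* right of 0 in them, and *Egr2* at 2.38 for IL-4, -0.87 for the difference and 1.66 for the remainder.

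*Egr1* encodes the founding EGR factor and spans 34859823 to 34864984 of chromosome 18 (mm10). It stood at 9.08, 11.3 and 9.09 CPM in untreated cells of mouse 1, 2 and 3 and at 3.96, 4.86 and 3.97 CPM after IL-4. In the Wnt3a-treated groups it stood at 1.55, 2.20 and 1.82 CPM (difference) and at 2.30, 2.21 and 1.97 CPM (remainder). All untreated libraries were above all IL-4 libraries, and these above all Wnt3a-treated libraries, while the difference and the remainder overlapped. IL-4 lowered *Egr1* 2.30-fold, with a log2 fold change of -1.20 (SE 0.17, adjusted p = 0.00065 by edgeR), and the change lay between -1.21 and -1.20 in the 3 mice. The difference was 5.28-fold lower than untreated cells (log2 fold change -2.40, SE 0.18, edgeR adjusted p = 4.2e-07) and the remainder 4.52-fold lower (-2.18, SE 0.18, edgeR adjusted p = 6.7e-07). *Egr1* was 3.22-fold lower on the Wnt3a average (-1.69, SE 0.13, edgeR adjusted p = 1.9e-07). Without mouse 3 in the fit, the call for IL-4 was lost (log2 fold change -1.22, edgeR adjusted p = 0.078). In these bulk libraries, fewer cells of a type and less RNA per cell cannot be told apart.

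*Egr3* encodes a close relative of EGR1 and lies on chromosome 14 from 70077203 to 70082614. It was the scarcest member. The raw counts were 22, 20 and 23 in untreated cells, 5, 7 and 8 after IL-4, 2, 6 and 3 in the difference, and 4, 2 and 7 in the remainder. Every treated library was below every untreated library, and the 3 treated groups overlapped. Summed over a group, 65 untreated counts stood against 20, 11 and 13. Relative to library sizes this was 3.0-fold lower after IL-4 (95% exact interval 1.79 to 5.22), 5.62-fold lower in the difference (2.94 to 11.8) and 4.75-fold lower in the remainder (2.59 to 9.40), and these intervals cover counting error only. Because its untreated libraries alone brought it into the fit, its fitted changes and calls, drawn in the plot of log2 fold changes, are not read as results.

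*Egr2*, also known as Krox20, was the member that moved most with IL-4. It lies on chromosome 10 from 67535475 to 67542188, and had the most RefSeq starts of the 7 members with promoter windows. CArG boxes are the sites through which SRF drives EGR genes, so the stretch before the third of its 5 RefSeq starts is shown, with its CArG box in capitals. The stretch, chr10:67537619-67537868 on the plus strand of GRCm38.p6 (mm10), overlaps no annotated exon and lies in introns of 2 *Egr2* transcripts that start further upstream.
Egr2: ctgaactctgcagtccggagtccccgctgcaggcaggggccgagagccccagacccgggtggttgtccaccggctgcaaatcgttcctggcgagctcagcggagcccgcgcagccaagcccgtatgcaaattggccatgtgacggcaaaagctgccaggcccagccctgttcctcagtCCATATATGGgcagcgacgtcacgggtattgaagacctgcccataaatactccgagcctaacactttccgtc
The box spans bases -72 to -63 before the start, and it also lies in the windows of starts 4 and 5. The window of start 2 holds a different CArG match, at bases -72 to -63 before that start. Of 32851 RefSeq promoter windows (from 250 bases before to 50 after a start), 1.63% hold a CArG box on either strand, read here by its usual consensus. Such a match is a description of the letters and not a site shown to be bound.

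*Egr2* stood at 8.81, 10.5 and 7.09 CPM in untreated cells of mouse 1, 2 and 3 and at 45.6, 47.5 and 44.1 CPM after IL-4. In the difference it stood at 4.46, 5.01 and 4.94 CPM, and in the remainder at 27.9, 27.0 and 28.7 CPM. None of the 4 groups overlapped another, with IL-4-treated cells highest, then the remainder, untreated cells and the difference. The log2 fold change with IL-4 was 2.38 (SE 0.12, edgeR adjusted p = 8.9e-08). The difference was 1.83-fold lower than untreated cells (log2 fold change -0.87, SE 0.14, edgeR adjusted p = 0.00036) and the remainder 3.17-fold higher (1.66, SE 0.12, edgeR adjusted p = 2.6e-07). Between the Wnt3a-treated groups the remainder was 5.80-fold higher (2.54, SE 0.13, edgeR adjusted p = 9.1e-08). On the Wnt3a average *Egr2* was 1.73-fold lower (-0.79, SE 0.09, edgeR adjusted p = 8.7e-06), an average of a group below and a group above untreated cells. When the deposited columns were tested as labelled, reads of both Wnt3a-treated groups entered the Wnt3a column, and the sign turned, with a log2 fold change of 0.50 (edgeR adjusted p = 0.0047) for that column against untreated cells and 0.88 (edgeR adjusted p = 6.4e-05) for the Wnt3a+IL4 column.

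**Figure D2:**
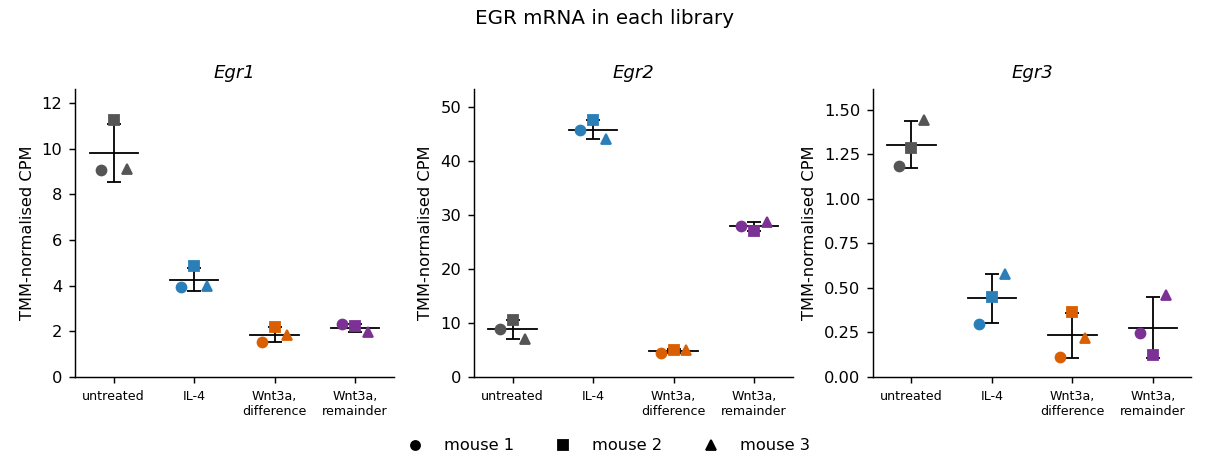
TMM-normalised CPM of *Egr1*, *Egr2* and *Egr3* in each library (circles, squares and triangles for mouse 1, 2 and 3), with the group mean (line) and SD (bars, n = 3). *Egr1* and *Egr3* are highest in untreated cells, while *Egr2* averages 45.7 CPM after IL-4 and 27.9 CPM in the remainder, against 8.80 CPM in untreated cells.

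*Egr1* and *Egr2* thus moved apart under IL-4. Per kilobase of exon, the ratio of *Egr2* to *Egr1* was 1.18 ± 0.13 (SD, n = 3) in untreated cells, 14.3 ± 1.20 after IL-4, 3.47 ± 0.42 in the difference and 17.1 ± 1.82 in the remainder. The ratios ran from 1.03 to 1.28 in untreated libraries and from 3.01 to 3.81 in the difference. They ran from 12.9 to 15.2 after IL-4 and from 16.0 to 19.2 in the remainder, so none of the groups overlapped. This pair of genes was chosen after its values were seen, so its ratios carry no test.

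*Klf2* encodes a factor known for keeping blood cells and vessel lining quiescent, and its gene is driven by MEF2 factors downstream of the kinase ERK5. It lies on chromosome 8 from 72319033 to 72321656. The stretch before its exons, chr8:72318812-72319032 on the plus strand of GRCm38.p6, is shown because a MEF2 match stands in it. In capitals are, in order, a match to the EGR motif GCGNGGGCG and the MEF2 match, read by its usual consensus.
Klf2: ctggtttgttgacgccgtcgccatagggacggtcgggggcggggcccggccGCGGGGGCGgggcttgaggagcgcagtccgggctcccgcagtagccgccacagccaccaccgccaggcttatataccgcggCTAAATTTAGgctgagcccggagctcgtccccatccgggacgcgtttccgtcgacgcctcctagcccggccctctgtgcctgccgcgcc
The EGR match spans bases -199 to -191 and the MEF2 match bases -118 to -109 before the RefSeq start. Of all promoter windows, 5.55% hold the EGR motif and 1.86% a MEF2 match on either strand.

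*Klf2* stood at 41.0, 38.5 and 32.4 CPM in untreated cells of mouse 1, 2 and 3 and at 52.6, 42.6 and 39.6 CPM after IL-4. In the difference it stood at 22.1, 20.3 and 16.8 CPM, and in the remainder at 28.1, 16.8 and 22.9 CPM. Every Wnt3a-treated library was below every library without Wnt3a, while untreated and IL-4-treated cells overlapped. The difference was 1.89-fold lower than untreated cells (log2 fold change -0.92, SE 0.17, edgeR adjusted p = 0.0015) and the remainder 1.65-fold lower (-0.72, SE 0.17, edgeR adjusted p = 0.0065). The Wnt3a average was 1.94-fold lower (-0.95, SE 0.12, edgeR adjusted p = 3.0e-05), in 3 of 3 mice. With IL-4 the log2 fold change was 0.27, with a 95% interval from -0.09 to 0.63 (edgeR adjusted p = 0.53). Without mouse 3, the call for the remainder was lost (-0.81, edgeR adjusted p = 0.054).

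*Klf4*, the closest relative of *Klf2* among the members and a factor tied to the response of macrophages to IL-4, lies on chromosome 4 from 55527143 to 55532466 on the minus strand. The stretch before its start, chr4:55532476-55532725, is shown 5′ to 3′ along the gene because 2 matches to the EGR motif, both on the opposite strand, stand in it in capitals.
Klf4: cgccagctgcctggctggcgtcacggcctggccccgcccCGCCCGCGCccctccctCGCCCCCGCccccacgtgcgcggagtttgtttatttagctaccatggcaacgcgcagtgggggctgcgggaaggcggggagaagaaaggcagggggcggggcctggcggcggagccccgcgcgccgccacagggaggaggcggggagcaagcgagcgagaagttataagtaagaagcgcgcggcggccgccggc
The matches span bases -211 to -203 and -194 to -186. The RefSeq table held windows for 7 of the 10 members (11 windows), without *Klf10*, *Egr1* and *Egr3*. Of the KLF members, *Klf3* also held the EGR motif, at 3 places of which the first and second overlap. The windows of *Klf6*, *Klf7* and *Klf13* held none. The cyclic AMP element TGACGTCA (1.79% of all windows), the STAT motif TTCNNNGAA (8.30%), its STAT6 form with 1 more base in the middle (6.95%), the NF-kB consensus (4.51%) and the TCF/LEF motif ATCAAAG (3.73%) were found in no member's window, which says only that these letters are not there. The KLF motif CACCC is common, in 57.5% of all windows.

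*Klf4* stood at 8.28, 7.01 and 6.27 CPM in untreated cells of mouse 1, 2 and 3. It stood at 21.8, 11.9 and 14.4 CPM after IL-4, at 17.1, 10.8 and 11 CPM in the difference, and at 20.4, 10.8 and 17.9 CPM in the remainder. Every treated library was above every untreated library, mouse 1 was the highest of each group, and the 3 treated groups overlapped. IL-4 raised *Klf4* 2.23-fold (log2 fold change 1.16, SE 0.27, edgeR adjusted p = 0.029). The difference was 1.80-fold higher than untreated cells (0.85, SE 0.27, edgeR adjusted p = 0.035) and the remainder 2.27-fold higher (1.18, SE 0.27, edgeR adjusted p = 0.0048).

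These calls of *Klf4* depended on single libraries. For IL-4, the call was lost without mouse 1 or 3, without any 1 untreated library, and without IL-4 library 1 or 3, with log2 fold changes from 0.87 to 1.27 and edgeR adjusted p from 0.053 to 0.39. For the difference, it was lost under scaling by total counts (0.76, edgeR adjusted p = 0.060) and without mouse 1 or 3, untreated library 2 or 3, IL-4 library 3 or difference library 1 (0.59 to 0.87, edgeR adjusted p from 0.052 to 0.20). For the remainder, it was lost without mouse 3 (1.04, edgeR adjusted p = 0.13). On the Wnt3a average the log2 fold change was 0.44 (SE 0.19, edgeR adjusted p = 0.088), and with the mouse as replicate block it was called (0.43, edgeR adjusted p = 0.013). Leaving out mouse 2, IL-4 library 1 or remainder library 2 also gave a call (0.53 to 0.58, edgeR adjusted p from 0.019 to 0.031).

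Per kilobase of exon, the ratio of *Klf4* to *Klf2* was 0.117 ± 0.0059 (SD, n = 3) in untreated cells, 0.213 ± 0.041 after IL-4, 0.396 ± 0.073 in the difference and 0.435 ± 0.043 in the remainder. It stayed below 1 in all 12 libraries, so *Klf2* was the more abundant of both throughout. The Wnt3a-treated libraries ran from 0.323 to 0.475, above the IL-4 libraries at 0.169 to 0.250 and the untreated ones at 0.11 to 0.122. This pair was also chosen after its values were seen and carries no test.

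**Figure D3:**
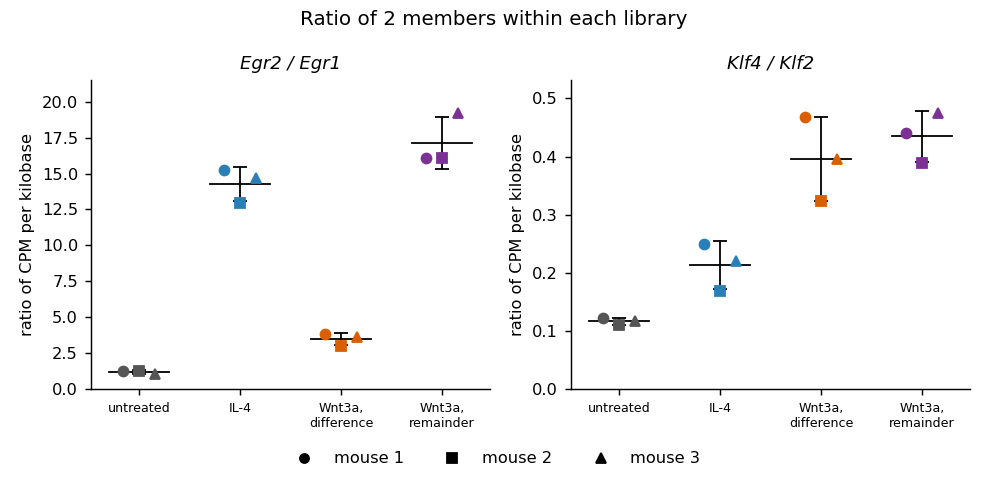
Ratio of CPM per kilobase of exon of *Egr2* to *Egr1* (left) and of *Klf4* to *Klf2* (right) in each library, with the group mean (line) and SD (bars, n = 3). *Egr2* to *Egr1* averages 14.3 after IL-4 and 17.1 in the remainder against 1.18 in untreated cells, and *Klf4* to *Klf2* averages 0.396 and 0.435 in the Wnt3a-treated groups against 0.117.

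*Klf10*, first described as a gene induced by TGF-β and known as a repressor, lies on chromosome 15 from 38291463 to 38300706. It stood at 30.4, 32.8 and 25.5 CPM in untreated cells of mouse 1, 2 and 3 and at 48.6, 43.2 and 40.4 CPM after IL-4. In the difference it stood at 32.9, 30.6 and 28.4 CPM, and in the remainder at 28.1, 27.2 and 27.5 CPM. The IL-4 libraries were above all others, and both Wnt3a-treated groups overlapped untreated cells. IL-4 raised it 1.49-fold (log2 fold change 0.58, SE 0.11, edgeR adjusted p = 0.0069). On the Wnt3a average it was 1.24-fold lower (-0.31, SE 0.08, edgeR adjusted p = 0.0061), while neither Wnt3a-treated group differed from untreated cells at the threshold, with log2 fold changes of 0.05 (95% interval -0.18 to 0.29) and -0.10 (-0.33 to 0.14). The call for IL-4 was lost without mouse 1 (0.53, edgeR adjusted p = 0.064) or mouse 3 (0.53, edgeR adjusted p = 0.16), and the call on the average without mouse 2 (-0.26, edgeR adjusted p = 0.063).

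*Klf3* encodes a repressor that recruits CtBP and lies on chromosome 5 from 64803388 to 64832901. It stood at 58.5, 50.1 and 58.0 CPM in untreated cells and at 56.0, 55.0 and 59.2 CPM after IL-4. In the difference it stood at 50.5, 52.0 and 44.2 CPM, and in the remainder at 31.4, 45.8 and 39.0 CPM. Only the remainder lay below all untreated libraries, 1.43-fold lower (log2 fold change -0.52, SE 0.12, edgeR adjusted p = 0.0055), and mouse 1 was its lowest library. The Wnt3a average was 1.29-fold lower (-0.37, SE 0.09, edgeR adjusted p = 0.0042). The call for the remainder was lost without mouse 1 (-0.35, edgeR adjusted p = 0.079) or mouse 3 (-0.49, edgeR adjusted p = 0.12), and that on the average without mouse 3 (-0.29, edgeR adjusted p = 0.15). Of its exon bases, 3.59% overlap *Gm20033* on the other strand.

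*Klf7*, a less studied activator of the family, lies on chromosome 1 from 64029447 to 64122282. It stood at 7.26, 6.37 and 6.33 CPM in untreated cells and at 7.43, 7.35 and 7.58 CPM after IL-4. In the difference it stood at 13.2, 10.6 and 8.80 CPM, and in the remainder at 7.20, 10.8 and 7.95 CPM. The difference lay above all untreated and IL-4 libraries, and the remainder overlapped both. The difference was 1.63-fold higher than untreated cells (log2 fold change 0.71, SE 0.17, edgeR adjusted p = 0.0090) and the Wnt3a average 1.38-fold higher (0.46, SE 0.12, edgeR adjusted p = 0.010). The call for the difference was lost without mouse 3 (0.80, edgeR adjusted p = 0.060) or difference library 1 (0.53, edgeR adjusted p = 0.053), and that on the average without mouse 2 (0.37, edgeR adjusted p = 0.081). Of its exon bases, 39.4% overlap *Gm13748* or *Gm26649* on the other strand, and other genes hold 38.2% of its stretches of 50 bases. The strand setting of the counting is not given in the sources used here, so its reads and theirs cannot be told apart over that part.

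*Klf13* and *Klf6*, both widely expressed, were the members with the most reads. *Klf13* (chromosome 7 from 63886351 to 63938915), a factor best known for driving a chemokine gene in T cells, ranged from 161 to 195 CPM in untreated cells, 172 to 184 after IL-4, 182 to 201 in the difference and 141 to 169 in the remainder. The remainder was lower than the difference by 1.25-fold (log2 fold change -0.32, SE 0.09, edgeR adjusted p = 0.049), and their libraries did not overlap. This call stood at the threshold. It was lost with the mouse as replicate block (-0.32, edgeR adjusted p = 0.064), when only the groups compared entered the fit (edgeR adjusted p = 0.093), without any of the 3 mice (-0.39 to -0.25, edgeR adjusted p from 0.12 to 0.27), and on leaving out any single library other than untreated library 1 or 2 or remainder library 3 (edgeR adjusted p from 0.059 to 0.20). Against untreated cells the log2 fold change of the remainder was -0.23 (SE 0.09, edgeR adjusted p = 0.072), and it was called under scaling by total counts (-0.33, edgeR adjusted p = 0.0049), without untreated library 1 (-0.29, edgeR adjusted p = 0.032) and without remainder library 3 (-0.30, edgeR adjusted p = 0.038).

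*Klf6* (chromosome 13 from 5861482 to 5870394), an activator induced in many injured tissues, ranged from 203 to 232 CPM in untreated cells, 223 to 242 after IL-4, 219 to 249 in the difference and 154 to 211 in the remainder. edgeR called it in no comparison. Of its differences between groups, the value furthest from 0 was -0.29 for the remainder against the difference (95% interval -0.52 to -0.07, edgeR adjusted p = 0.14), which was called without the count minimum (-0.30, edgeR adjusted p = 0.039) and without remainder library 2 (-0.38, edgeR adjusted p = 0.047). Against untreated cells the remainder gave -0.24 (95% interval -0.46 to -0.01, edgeR adjusted p = 0.12), and it was called without mouse 2 (-0.38, edgeR adjusted p = 0.032) or remainder library 2 (-0.33, edgeR adjusted p = 0.039). With IL-4 the interval ran from -0.15 to 0.30.

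**Figure D4:**
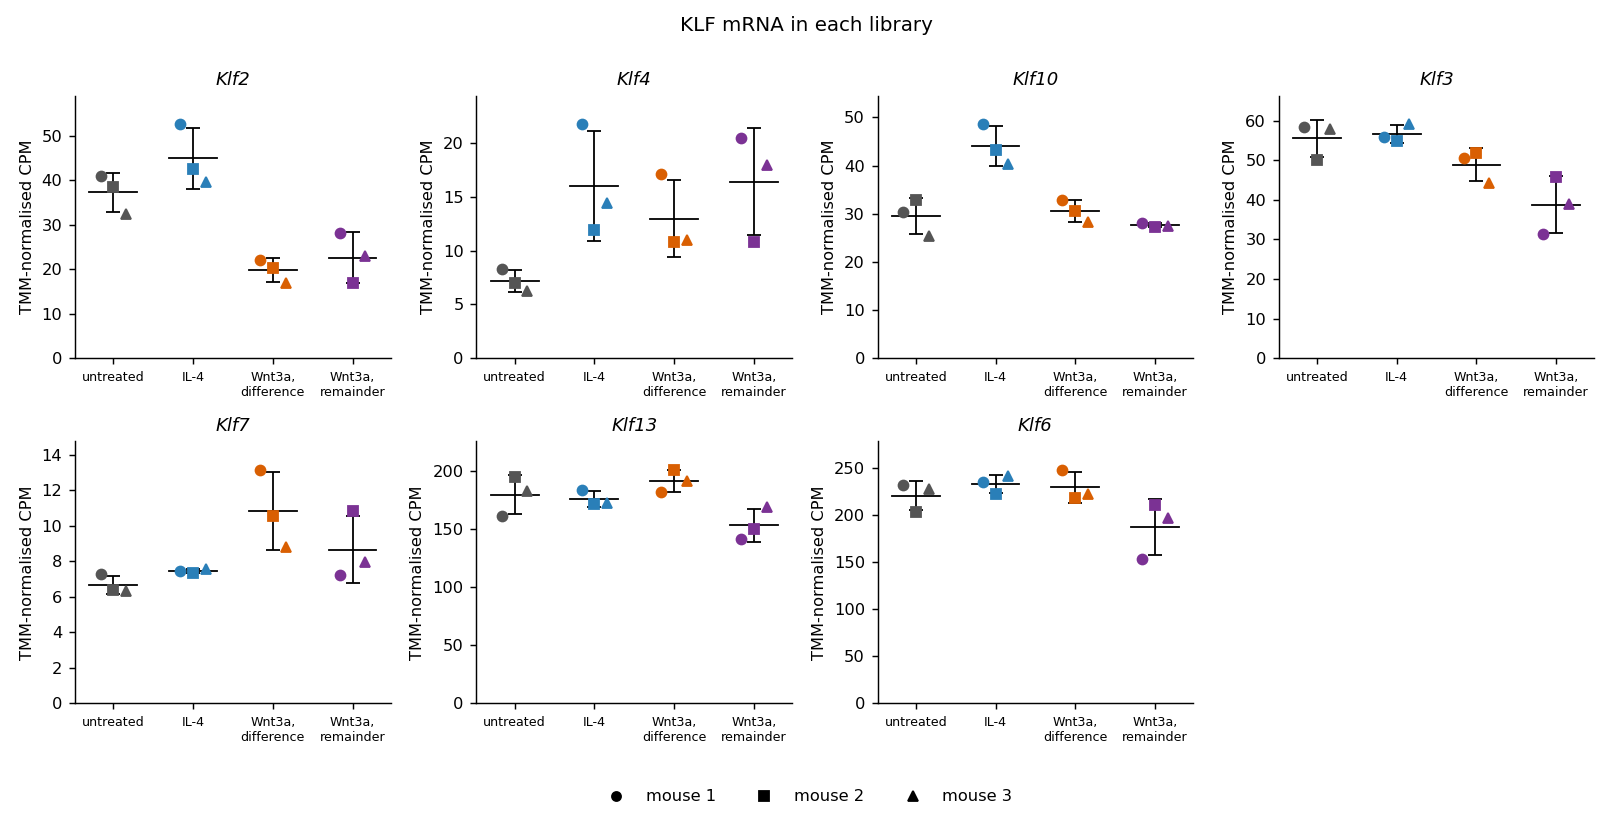
TMM-normalised CPM of the 7 KLF members in each library (circles, squares and triangles for mouse 1, 2 and 3), with the group mean (line) and SD (bars, n = 3), each panel on its own axis from 0. The 6 Wnt3a-treated libraries of *Klf2* lie between 16.8 and 28.1 CPM, below all others, and the 3 IL-4 libraries of *Klf10* between 40.4 and 48.6 CPM, above all others.

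Per kilobase of exon, *Klf6* was the most abundant member in every group. In untreated cells it stood at 50.3 ± 3.54 CPM per kilobase (SD, n = 3), followed by *Klf13* at 23.8 ± 2.24 and *Klf2* at 20.2 ± 2.39, which overlapped each other. Then came *Klf10* at 7.07 ± 0.90 and *Klf3* at 4.94 ± 0.42. *Egr2* at 2.59 ± 0.50, *Klf4* at 2.36 ± 0.33 and *Egr1* at 2.19 ± 0.28 followed, each overlapping its neighbour, and then *Klf7* at 0.82 ± 0.06 and *Egr3* at 0.30 ± 0.03. After IL-4, *Egr2* reached 13.5 ± 0.51 CPM per kilobase, above *Klf10* at 10.5 ± 1.00. It stood at 8.20 ± 0.26 in the remainder, again above *Klf10* (6.61 ± 0.11), and at 1.41 ± 0.09 in the difference, where it overlapped *Klf7* (1.33 ± 0.27). *Egr1*, level with *Egr2* in untreated cells, fell below *Klf7* in both Wnt3a-treated groups, to 0.41 ± 0.07 in the difference and 0.48 ± 0.04 in the remainder.

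**Figure D5:**
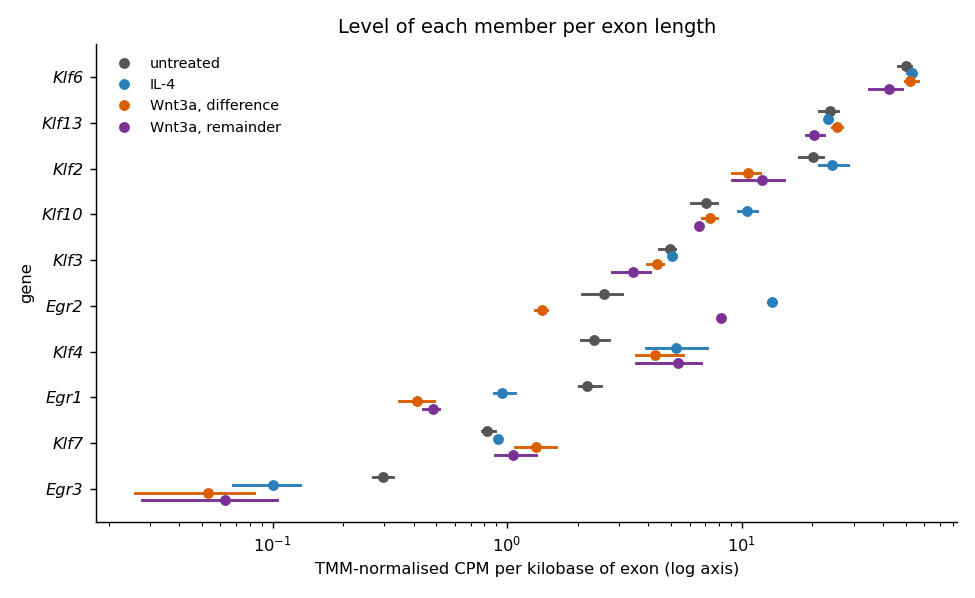
TMM-normalised CPM per kilobase of exon of each member on a log axis, with points for the group mean and bars from the lowest to the highest of 3 libraries. Levels in untreated cells run from 0.30 for *Egr3* to 50.3 for *Klf6*, and *Egr2* moves from 2.59 in untreated cells to 13.5 after IL-4.

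Whether the IL-4 response of a member differed with Wnt3a depends on which group had received IL-4, so the interaction was tested under both assignments. With the remainder as Wnt3a+IL-4, edgeR called 0 of the 9 members other than *Egr3* after adjustment, beside 0.105% of all genes. Over all 10 members, *Egr3* included, 6 had an unadjusted p under 0.05 in edgeR, as had 1576 of all 12421 genes. *Egr2* then gave an interaction of 0.16 on the log2 scale, with a 95% interval from -0.22 to 0.54 (edgeR adjusted p = 0.79). Values were 1.42 for *Egr1* (SE 0.26, edgeR adjusted p = 0.072) and -0.73 for *Klf10* (SE 0.15, edgeR adjusted p = 0.12), beside *Klf4* at -0.82 (SE 0.37, edgeR adjusted p = 0.38). DESeq2 called 2 members, *Egr1* and *Klf10* (adjusted p = 0.0098 and 0.0060), beside 165 of all 12421 genes. Without the count minimum, edgeR called 3, *Egr1*, *Klf10* and *Klf4* (adjusted p = 0.0016, 0.0044 and 0.014), beside 575 of 23413 genes. With the difference as Wnt3a+IL-4, 3 of these 9 members were called, beside 7.33% of all genes. These were *Egr2* at -4.92 (SE 0.18, edgeR adjusted p = 1.2e-09), *Klf4* at -1.49 (SE 0.37, edgeR adjusted p = 0.025) and *Egr1* at 0.98 (SE 0.26, edgeR adjusted p = 0.036). The call for *Klf4* was lost without mouse 3, untreated library 3, IL-4 library 1, difference library 2 or 3, or remainder library 1 or 3 (edgeR adjusted p from 0.063 to 0.41). That for *Egr1* was lost under DESeq2 (adjusted p = 0.054), without any of the 3 mice, and without untreated library 1 or 2, IL-4 library 1 or 3, difference library 2 or 3, or remainder library 1 or 3 (edgeR adjusted p from 0.052 to 0.38).

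Of the other KLF genes, 4 of 10 were tested. On the Wnt3a average 0 were higher and 2 lower, beside 16.5% and 16.1% of all genes. These were *Klf11* (log2 fold change -0.99, SE 0.09, edgeR adjusted p = 6.4e-07) and *Klf9* (-0.93, SE 0.11, edgeR adjusted p = 1.6e-05). With IL-4, edgeR called 0 of the 4, beside 3.4% of all genes, and DESeq2 1, beside 559 of all 12421. At an unadjusted p under 0.05 in edgeR stood 2 of the 4, beside 1790 of all 12421 genes. Their median log2 fold change was 0.19 against 0.00 over all genes. The related SP factors bind the same GC-rich sequences, and of the 4 tested of 9, edgeR and DESeq2 called 0 in each comparison, with 1 at an unadjusted p under 0.05 on the Wnt3a average. Of all 12421 genes, edgeR called 32.6% on that average, and 5136 had an unadjusted p under 0.05. Among 11 cofactors that KLF proteins recruit, 1 was called on the Wnt3a average, *Ctbp2* (-0.23, SE 0.07, edgeR adjusted p = 0.015), beside 32.6% of all genes. Against untreated cells edgeR and DESeq2 called 0 of these cofactors, with 0, 2 and 1 at an unadjusted p under 0.05 for IL-4, the difference and the remainder. The shares of all genes that edgeR called there were 3.4%, 23.2% and 25.3%. An unadjusted p under 0.05 was reached there by 1790, 4413 and 4572 of all 12421 genes. Of 5 partners and relatives of EGR factors, 3 were tested, and edgeR called 1 higher and 0 lower with IL-4, beside 2.31% and 1.09% of all genes. *Nab2*, a corepressor that EGR proteins themselves induce, rose with IL-4 from 33.6 ± 3.60 to 62.1 ± 1.82 CPM (SD, n = 3; log2 fold change 0.89, SE 0.09, edgeR adjusted p = 6.8e-05). It stood at 28.6 ± 2.25 CPM in the difference and 41.3 ± 1.93 CPM in the remainder, so its group means stood in the order seen for *Egr2*. Unlike *Egr2*, it was not called in the difference against untreated cells (-0.23, edgeR adjusted p = 0.096).

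Among genes of the ERK and SRF route to EGR genes, 14 of 16 were tested, and on the Wnt3a average 2 were higher and 6 lower, beside 16.5% of all genes higher and 16.1% lower, with a median log2 fold change of -0.06 against -0.02 over all genes. The ERK inhibitors *Spred1* (-0.87, edgeR adjusted p = 3.2e-05), *Spred2* (-0.78, edgeR adjusted p = 3.5e-05) and *Spry2* (-0.64, edgeR adjusted p = 0.0037) were among those that fell. IL-4 called 1 higher, the SRF cofactor *Mrtfb* (0.48, edgeR adjusted p = 0.0083), and 1 lower, beside 2.31% and 1.09% of all genes. Of the 7 genes of the ERK5 and MEF2 route to *Klf2* and *Klf4*, 0 were higher and 3 lower on the Wnt3a average, *Mef2a* (-0.64, edgeR adjusted p = 0.00098), the ERK5 gene *Mapk7* (-0.23, edgeR adjusted p = 0.0090) and *Mef2d* (-0.19, edgeR adjusted p = 0.019). Their median was -0.19, and 16.1% of all genes were lower. With IL-4, edgeR and DESeq2 called 0 of them, and 0 had an unadjusted p under 0.05. Of all 12421 genes, edgeR called 422 with IL-4, and 1790 had such an unadjusted p.

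Other immediate-early genes were read beside the EGR genes, with 18 of 20 tested. *Fosb* and *Nr4a3* passed the count minimum only through 1 group and are left out of the numbers. Of the other 16, 9 were lower and 1 higher on the Wnt3a average, beside 16.1% and 16.5% of all genes, with a median log2 fold change of -0.45 against -0.02 over all genes. For the difference 9 were lower and 1 higher (11.4% and 11.8% of all genes), and for the remainder 8 and 1 (11.7% and 13.6%). *Nr4a1*, an orphan nuclear receptor gene, stood at 11.2 ± 1.20 CPM in untreated cells, 4.89 ± 0.87 after IL-4, 1.9 ± 0.81 in the difference and 2.0 ± 0.41 in the remainder (SD, n = 3). The MAP kinase phosphatase gene *Dusp1* stood at 35.6 ± 2.63, 24.8 ± 3.38, 13.7 ± 1.01 and 14.2 ± 2.18 CPM in the same order. Both fell with IL-4 (edgeR adjusted p = 0.0092 and 0.038) and on the Wnt3a average (-1.93 and -1.09, edgeR adjusted p = 2.0e-06 and 5.6e-07), as *Egr1* did. *Fosb* averaged 1.51 CPM in untreated cells and 0.20 and 0.10 CPM in the difference and the remainder, and *Nr4a3* 0.19, 0.75 and 2.07 CPM in the same order. IL-4 called 2 higher and 2 lower of the 16 (2.31% and 1.09% of all genes), with a median of 0.08.

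All 11 genes listed as IL-4-induced and tied to KLF4 or EGR2 were tested. Of these, 4 (*Retnla*, *Cdh1*, *Ccl17* and *Ccl24*) passed the count minimum only through the libraries of 1 group and are left out of the numbers. IL-4 called 5 of the other 7 higher and 0 lower, beside 2.31% and 1.09% of all genes, with a median log2 fold change of 1.30. For the difference 0 were higher and 3 lower (median -0.83), beside 11.8% and 11.4%, and for the remainder 5 higher and 1 lower (median 1.41), beside 13.6% and 11.7%, both against untreated cells. The remainder was above the difference in 6 of the 7, with 0 below, beside 2.87% and 2.38%. *Arg1*, the arginase gene, averaged 0.06 CPM in untreated cells, 1.53 ± 0.15 after IL-4, 0.02 in the difference and 12.8 ± 10.6 in the remainder (SD, n = 3). *Cdh1*, the E-cadherin gene, stood at 0.79 ± 0.19 CPM after IL-4 and 0.57 ± 0.21 in the remainder, and at 0.02 CPM in the others. *Ccl17*, a chemokine gene, averaged 2.36 ± 2.06 CPM in the remainder and at most 0.35 CPM elsewhere. *Retnla*, the gene of the secreted protein FIZZ1, did not follow *Egr2*, with 41.9 ± 6.74 CPM after IL-4 and 0.02 CPM in each of the other groups, the remainder included.

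Of 8 genes known to be repressed or activated by KLF2, 7 were tested, and on the Wnt3a average 2 were higher and 2 lower, beside 16.5% and 16.1% of all genes. *Hif1a*, the hypoxia factor gene, rose from 49.3 ± 13.5 CPM in untreated cells to 212 ± 44.0 in the difference and 114 ± 42.6 in the remainder (SD, n = 3), and its log2 fold change was 1.67 on the Wnt3a average (edgeR adjusted p = 4.2e-06). *Thbd*, the thrombomodulin gene, fell (-0.86, edgeR adjusted p = 3.0e-06). *Itgb7* rose (1.14, edgeR adjusted p = 0.00017) and *Nlrp3* fell (-0.19, edgeR adjusted p = 0.029). The list mixes repressed and activated genes, and whether these changes follow that of *Klf2* was not tested. IL-4 called 0 higher and 1 lower, beside 2.31% and 1.09% of all genes.

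For each member called in a comparison, the genes with the closest profile were found as those with the smallest root mean square difference of centred log2(CPM + 1) over the 12 libraries, among genes averaging at least 8 CPM. The libraries of a mouse share a donor, so these are descriptions. Each member's own root mean square around its mean ran from 0.14 for *Klf13* to 1.21 for *Egr2*. A smaller distance of a member that moved little is therefore not a closer match. *Egr1* was closest to *Dusp1* (0.27) and *Marcksl1* (0.29), *Egr2* to *Atp6v0d2* (0.34) and *Mrc1* (0.34), and *Egr3* to *Dusp6* (0.12) and *Sik1* (0.14). Group means of *Egr3* ran only from 0.23 to 1.30 CPM, and the added 1 CPM flattens so low a profile. Its small distances therefore do not mean that its fold changes were matched. *Klf2* was closest to *Tmc8* (0.14) and *Mgst3* (0.14), *Klf4* to *Rab19* (0.24) and *Ncaph* (0.27), and *Klf10* to *Arhgap25* (0.15) and *Txnip* (0.15). *Klf3* was closest to *Cttnbp2nl* (0.06) and *Bach1* (0.06), *Klf7* to *Ccdc25* (0.08) and *Golph3l* (0.11), and *Klf13* to *Cyfip1* (0.06) and *Dock8* (0.07). *Mrc1*, the mannose receptor gene, stood at 50.4 ± 15.3 CPM in untreated cells, 222 ± 41.7 after IL-4, 28.5 ± 6.28 in the difference and 142 ± 10.0 in the remainder (SD, n = 3). Its group means stood in the same order as those of *Egr2*.

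Defining markers of macrophages were well expressed, with 8 of 8 above 3 counts in every library and a summed level of 43979 to 68614 CPM. The neutrophil marker *Ly6g*, the lymphocyte markers *Cd3e*, *Cd3d*, *Cd8a*, *Ncr1*, *Ms4a1* and *Pax5*, and the erythroid genes *Hba-a1* and *Hbb-bs* were at 3 counts or fewer in every library. Other neutrophil genes were detected. Of the 6 listed, 5 were above 3 counts in all IL-4 and all remainder libraries, and 3 in all untreated and all difference libraries. Of 7 stromal genes, 5 were above it in all untreated libraries and 4 in all libraries of each other group. Some marker lists moved with the groups. The 4 erythroid and megakaryocyte genes, of which *Pf4* and *Itga2b* were detected, summed to 11.5 to 18.7 CPM without Wnt3a and to 45.1 to 112 CPM with it, as *Egr1* and *Klf2* fell. The 5 dendritic cell genes summed to 1.44 to 2.43 CPM without Wnt3a, 2.84 to 7.61 in the difference and 8.41 to 21.2 in the remainder. The 6 T or NK cell genes, of which *Cd4* and *Il7r* were detected, summed to 105 to 116 CPM after IL-4, where *Egr2*, *Klf4* and *Klf10* rose, against 58.7 to 91.9 CPM in the other groups. The 6 neutrophil genes summed to 33.3 to 41.1 CPM after IL-4 and 19.5 to 32.9 elsewhere, and the 7 stromal genes to 7.78 to 33.4 CPM over all groups. The part of other cells in the results above was not tested.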

How the data were processed

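RNA from BMDMs of 3 mice in 4 conditions was sequenced as single reads. By the submitters' processing notes, the authors trimmed reads (Trimmomatic 0.36), aligned them to mm10 (STAR 2.6.0) and counted them per gene (HTSeq 0.11.1), and they deposited raw counts without normalization. The paper names UCSC genes, whereas the deposited identifiers are from Ensembl. A symbol was matched to 48058 of the 48526. No row lacked a gene (0 rows), and 0 value columns were unused. Positions, exon lengths and overlaps came from the GENCODE annotation of mm10, and promoter windows from RefSeq (GRCm38.p6).

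Parts of the Wnt3a and Wnt3a+IL4 columns were solved for in each mouse. Genes reaching 10 counts in 3 or more libraries entered edgeR 4.0.16, run in R 4.3.3 (TMM, quasi-likelihood test across all genes, all 12 libraries, no term for the mouse, adjusted p under 0.05). An SE is the log2 fold change over the square root of the F statistic. Alternatives were DESeq2 1.42.0, its size factors or total counts as scaling, no filter or 1 CPM in 3 libraries, only the groups compared, an adjusted p under 0.01, the deposited columns as labelled, a replicate block for the mouse, and fits without single mice or single libraries. Scripts were tested on simulated data.

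The labels pair libraries, since each mouse gave 1 to each condition. Deviations of same-mouse libraries from group means correlated from -0.57 to 0.54 in 18 pairs, 6 of them over 0.1. Pairs of different mice spanned a like range, from -0.52 to 0.50.

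The members and the 9 gene lists were chosen with earlier results of these data known. Named genes are the members, up to 4 called genes per list with the largest change for IL-4 or on the Wnt3a average, and the 2 genes closest in profile to each called member. Markers were taken as detected above 3 counts, and some listed genes are not reported here. Depth was 13342492 to 17453377 counts per library. Genes that passed the count minimum only through 1 group were left out of the numbers called in a list, which was decided after seeing the data. Protein sequences of the members were not analysed here.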

Additional observations from a re-analysis of the deposited data

Results flagged for a closer look

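In 3 members, the IL-4 response with and without Wnt3a differed by the interaction test under the assignment in which the difference is Wnt3a+IL-4. With the members' responses with Wnt3a minus those without it on the log2 scale, these were *Egr2* at -4.915 (edgeR adjusted p = 1.2e-09), *Klf4* at -1.488 (edgeR adjusted p = 0.025) and *Egr1* at 0.9769 (edgeR adjusted p = 0.036). The direction was the same in 3 of 3 mice for each. Under the reverse assignment the values were 0.16, -0.82 and 1.42 in the same order, and edgeR with the count minimum called 0 of these 3. There DESeq2 called *Egr1* (adjusted p = 0.0098), beside 165 of all 12421 genes. Without the minimum, edgeR called *Egr1* (adjusted p = 0.0016) and *Klf4* (adjusted p = 0.014), beside 575 of 23413 genes. With the difference as Wnt3a+IL-4, the calls of *Klf4* and *Egr1* were lost on leaving out single mice or libraries. That of *Egr1* was also lost under DESeq2 (adjusted p = 0.054), and that of *Egr2* held in each alternative run. The labels do not tell which assignment holds, and it was not tested. *Arg1*, a gene of the IL-4 list, averaged 1.53 CPM after IL-4, 0.02 in the difference and 12.8 in the remainder.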

How the results depend on the processing

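Of 1554 log2 fold changes of members under alternatives, 1436 kept their direction and side of the threshold, 71 lost a call, 22 gained one and 25 turned sign. *Egr3* did not reach the count minimum without any 1 mouse, without any 1 untreated library or, for the remainder against the difference, with only the groups compared, and DESeq2 gave it no adjusted p in 3 comparisons, so these values are not among them. One called value turned, *Egr2* in the difference against untreated cells, which was 0.50 with the columns as labelled. The columns as labelled also gave -0.045 for *Klf6*, -0.0080 for *Klf10* and -0.017 for *Klf13* in that comparison. Scaling by total counts gave -0.027 for *Klf3* with IL-4, and -0.032 for *Klf6* and -0.037 for *Klf10* in the difference, none of them called. The cause of these turns was not tested.

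Leaving out a mouse or a library moved the number of the 10 members called, *Egr3* included, from 1 to 5 for IL-4, 3 to 6 for the difference, 2 to 7 for the remainder, 1 to 3 for the remainder against the difference, 5 to 8 on the Wnt3a average, and 1 to 3 for the interaction with the difference as Wnt3a+IL-4. The lowest counts for IL-4, the difference and the remainder (1, 3 and 2) came without mouse 3. For IL-4 the fits without mouse 1 or mouse 2 gave 2 and 4, and the cause was not tested. Uncalled values that turned sign in this way ranged from -0.052 to 0.083 for *Klf3* and -0.127 to 0.037 for *Klf13* with IL-4, from -0.011 to 0.107 for *Klf6* and -0.048 to 0.131 for *Klf10* in the difference, from -0.197 to 0.0035 for *Klf10* in the remainder, from -0.308 to 0.740 for *Egr3* in the remainder against the difference, from -0.254 to 0.119 for *Klf2* in the interaction with the remainder as Wnt3a+IL-4, and from -0.0047 to 0.369 for *Klf6* and -0.191 to 0.402 for *Klf7* in the reverse interaction.

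An adjusted p under 0.01 left *Klf10*, *Egr1* and *Egr2* called for IL-4. It left *Egr2* alone for the remainder against the difference and for the interaction with the difference as Wnt3a+IL-4. How many of all genes pass at 0.01 is not reported here. For the remainder against the difference, 4 members were called with no filter, beside 1454 of 23413 genes. Only the groups compared gave 1, beside 422 of 11917 genes, and the replicate block 1, beside 556 of 12421. The replicate block changed the calls of *Klf13* there and of *Klf4* on the Wnt3a average, and no other call of a member. For the interaction with the remainder as Wnt3a+IL-4, DESeq2 called 2 members, beside 165 of 12421 genes. The test without a filter called 3, beside 575 of 23413. *Egr3*, with 65 counts or fewer in a group, is limited by depth.

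Over all genes tested, leaving out mouse 3 moved the number called from 422 to 77 for IL-4, 2884 to 1220 for the difference, 3137 to 1375 for the remainder, 652 to 97 for the remainder against the difference, and 4050 to 2081 on the Wnt3a average. For the interaction it fell from 13 to 0 with the remainder as Wnt3a+IL-4 and from 910 to 265 with the difference. Leaving out mouse 2 raised the number from 652 to 1188 for the remainder against the difference and from 910 to 1459 for the interaction with the difference as Wnt3a+IL-4. Leaving out any 1 library gave 0 to 43 calls for the interaction with the remainder as Wnt3a+IL-4, and DESeq2 called 165 there. Without a filter, 812, 1454, 575 and 1505 genes were called for IL-4, the remainder against the difference and these interactions, and 422 for the remainder against the difference with only the groups compared. Single libraries moved the number called to between 250 and 266 for IL-4 (untreated library 3, IL-4 library 1 or 2), and to between 355 and 1159 for the remainder against the difference (remainder library 1, 2 or 3, difference library 2 or 3).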
